A study of Mus musculus with 4 samples.

Results

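The genes examined, in RNA of sorted mouse spinal cord cells, are 10 genes of immature neurons and growth cones: Dcx, Sox4, Sox11, Stmn1, Stmn2, Stmn3, Tubb3, Elavl3, Elavl4 and Gap43. They were taken by exact gene name, and all 10 were found among the 42458 rows of the count table. Each of 4 C57BL6 mice gave 1 library of 50 sorted cells, and the 4 libraries form a single group, so the data give levels within the group and their spread between mice. All mice had received AAV2-CAG-tdT, a viral vector for the red fluorophore tdTomato driven by CAG, a promoter active in many cell types, by injection into the brain's ventricles. Slices of spinal cord with the ependymal region were dissociated and tdTomato-positive cells were sorted, as a way to enrich CSF-cNs, the neurons that contact the cerebrospinal fluid of the central canal. The labels give no age and no sex of the mice, and a C57BL6 preparation served as the sort's negative control.

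Young neurons pass through a stage of outgrowth in which the cytoskeleton of the axon and its tip, the growth cone, is built and rebuilt. Sox4 and Sox11, the SoxC transcription factors, are known to turn on neuronal genes in that stage, Tubb3 among them. Dcx stabilises microtubules, stathmins (the Stmn genes) bind free tubulin and favour microtubule disassembly, Tubb3 is the neuronal beta-tubulin, Gap43 is a membrane protein of growth cones, and Elavl3 and Elavl4 code for neuronal RNA-binding proteins that stabilise transcripts. CSF-cNs are known to keep some immature features in the adult spinal cord, Dcx among them.

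The libraries did not hold equal amounts of CSF-cN RNA. The tdTomato transgene had 5, 58, 13533 and 153379 counts in mice 1, 2, 3 and 4, out of 83007030 to 115479640 counts per library, and lists of 4 values keep this order of mice. The list of 9 CSF-cN markers summed to 20.3, 12.9, 941 and 846 CPM (counts scaled to library size with TMM normalization). Of its members, 3, 5, 1 and 1 were at 0, and its defining gene Pkd2l1 stood at 17.9, 0.193, 664 and 690.2 CPM. Pkd2l1 made up most of the sums of mice 3 and 4. The list was not uniform: Tal1 had 0.898, 10.3, 10.8 and 14.8 CPM, most of the sum of mouse 2, and P2rx2 had no count in any library. By the transgene and Pkd2l1, the libraries of mice 1 and 2 go against the label of CSF-cN enrichment. The log2 levels against 10 CPM, the sum, the spread, the order per length and the pair ratios below are given with and without them. Means of single genes in CPM are over all 4 mice. All 4 libraries were rich in microglial RNA (34927 to 58988 CPM for 10 markers), and those of mice 1 and 3 in oligodendrocyte RNA (15065, 238, 19259.6 and 459 CPM for 10 markers). In such mixed bulk libraries, fewer cells of a type and less RNA per cell cannot be told apart.

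The promoter sequences of 4 of the genes are shown first: the SoxC pair, which had contrasting profiles over the 4 mice, and Dcx and Tubb3. Dcx and Tubb3 had their highest levels in mouse 3, where Sox4 was lowest, as had every other gene of the 10. RefSeq gave a promoter window for 7 of the 10 genes, each of 250 bases before and 50 after the start, on GRCm38.p6. The windows below are written 5′ to 3′ along the gene's own strand, which is plus for Tubb3 and minus for the others. They lie at chr13:28953650-28953949 for Sox4, chr12:27342669-27342968 for Sox11, chrX:143933170-143933469 for Dcx (the first of its windows) and chr8:123411303-123411602 for Tubb3. Capitals mark matches on either strand of ACAANG, a core of SOX binding sites, of CCAAT, the CCAAT box, and of TATAAA, the TATA box, and no match shown overlaps another.
Sox4: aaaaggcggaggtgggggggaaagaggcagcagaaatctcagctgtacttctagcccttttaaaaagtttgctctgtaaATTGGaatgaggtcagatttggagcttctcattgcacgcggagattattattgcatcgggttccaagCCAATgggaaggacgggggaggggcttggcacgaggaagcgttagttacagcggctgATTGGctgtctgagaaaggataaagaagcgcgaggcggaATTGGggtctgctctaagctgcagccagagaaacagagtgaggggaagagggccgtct
Sox11: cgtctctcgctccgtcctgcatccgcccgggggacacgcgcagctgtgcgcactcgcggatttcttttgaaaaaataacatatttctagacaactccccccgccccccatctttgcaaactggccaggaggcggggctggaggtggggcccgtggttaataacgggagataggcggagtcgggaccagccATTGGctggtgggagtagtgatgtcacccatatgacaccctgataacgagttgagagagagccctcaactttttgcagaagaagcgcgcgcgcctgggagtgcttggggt
Dcx: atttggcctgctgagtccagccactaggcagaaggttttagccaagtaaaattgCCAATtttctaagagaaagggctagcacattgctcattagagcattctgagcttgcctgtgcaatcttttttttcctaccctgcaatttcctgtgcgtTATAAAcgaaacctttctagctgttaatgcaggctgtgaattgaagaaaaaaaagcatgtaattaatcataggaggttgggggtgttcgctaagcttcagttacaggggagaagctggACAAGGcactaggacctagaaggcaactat
Tubb3: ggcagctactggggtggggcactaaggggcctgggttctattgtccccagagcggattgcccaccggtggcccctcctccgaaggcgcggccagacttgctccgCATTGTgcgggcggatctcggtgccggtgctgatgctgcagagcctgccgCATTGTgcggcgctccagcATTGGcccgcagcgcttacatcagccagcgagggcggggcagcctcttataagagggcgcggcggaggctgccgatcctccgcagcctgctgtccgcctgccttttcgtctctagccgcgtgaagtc
The SOX core occurred 2 times in the Tubb3 window and 1 time in the Dcx window shown (2 times in the other Dcx window, which overlaps it), while the windows of Sox4 and Sox11 held none. It occurred in 41.2% of all 32851 RefSeq mouse promoter windows of this length, so its presence is common. The CCAAT box occurred 4 times in the window of Sox4 and 1 time in each of the other 3 (37.4% of all windows hold it), and the TATA box occurred in that of Dcx and not in the other 3 (13.6% of all windows). These are matches of letters and say nothing of binding.

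Dcx, the microtubule-binding protein used to identify newborn neurons, was found in 2 libraries alone. It had 0, 0, 1125 and 943 counts, or 0, 0, 13 and 10.5 CPM. At the depth of the libraries of mice 1 and 2, finding no count leaves room for at most 0.0278 and 0.0321 CPM (3 counts, counting error only). Its locus on GRCm38 is chromosome X, 143855842 to 143933311, minus strand, and its exons cover 12647 bases, more than those of any other of the 10 genes. By its mean per kilobase of exon over the 4 mice it was the lowest of the 10 (0.465 CPM per kb). It had 1.03 and 0.831 CPM per kb in mice 3 and 4, and in mouse 4 Sox11 (0.694) and Elavl3 (0.652) were lower.

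Sox11 was found in the same 2 libraries as Dcx. It had 1, 0, 1502 and 518 counts, which is 0.00926, 0, 17.4 and 5.77 CPM, so that the single count of mouse 1 lies within what a count of 0 allows. Mouse 3 exceeded mouse 4 by 3.02-fold for Sox11 (95% counting interval 2.73 to 3.34) and by 1.24-fold for Dcx (1.14 to 1.35), ratios that compare these 2 libraries and not conditions. By the Euclidean distance between profiles of log2(CPM + 1), each centred on its mean over the 4 mice, Dcx and Sox11 were the closest of the 45 pairs among the 10 genes (distance 0.84). Sox11 is a gene of 1 exonic block (chromosome 12, 27334264 to 27342574, minus strand).

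Sox4, the other SoxC factor, was distributed the other way round. It had 50.2, 62.2, 17.7 and 31.1 CPM, averaging 40.3 ± 19.7 CPM (SD, n = 4), and was the only 1 of the 10 genes whose 2 highest values were in mice 1 and 2. In mouse 3, Sox4 stood at 0.354 of its level in mouse 1 (counting interval 0.334 to 0.374), and in mouse 4 at 0.5 of its level in mouse 2 (0.478 to 0.523). The list of 10 microglial markers also had its 2 lowest sums in mice 3 and 4 (53004, 58988, 34927 and 50873 CPM); its part in the level of Sox4 was not tested. The locus of Sox4 is chromosome 13, 28948919 to 28953713, minus strand, and in GENCODE M21 54.6% of its exonic bases are also exon of Gm26735, a long non-coding RNA gene on the opposite strand. The libraries do not keep the strand and no row of the count table carries the name Gm26735, so part of the Sox4 counts may come from that gene.

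**Figure D1:**
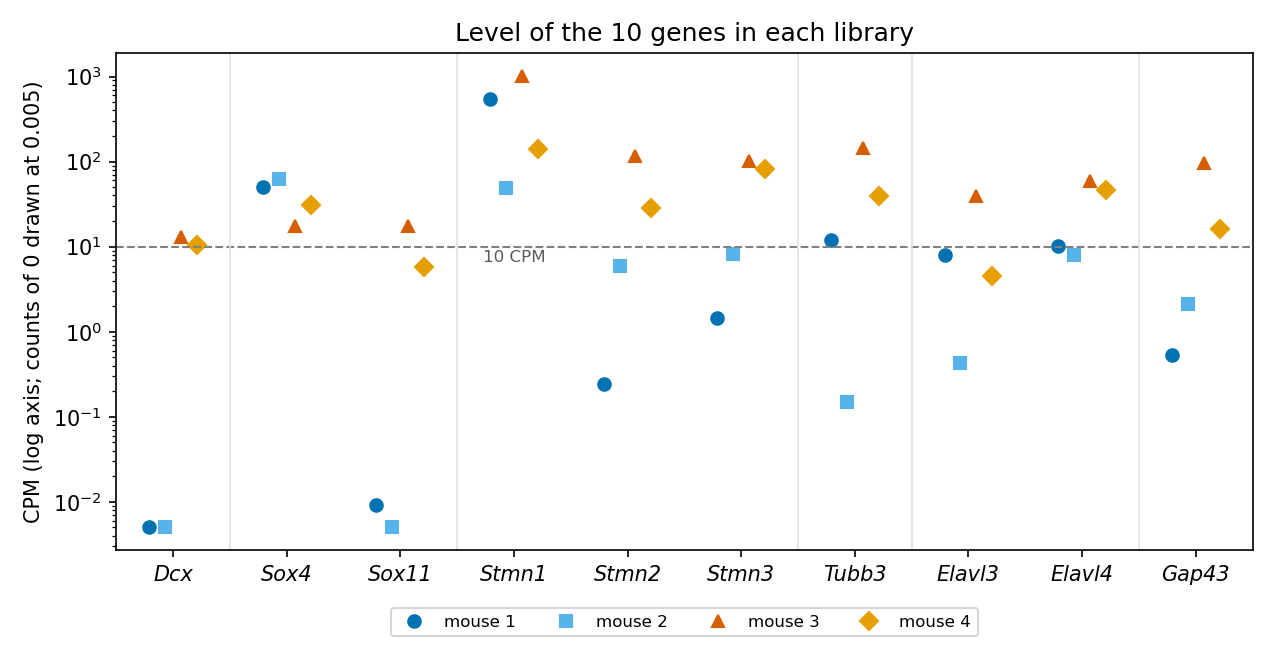
Level of each of the 10 genes in each of the 4 libraries, in CPM on a log axis, with counts of 0 drawn at the bottom and a dashed line at 10 CPM; each point is 1 mouse. Dcx and Sox11 had 1 count or none in mice 1 and 2, Sox4 was higher in those mice, and the lowest value of Stmn1 was 49.5 CPM.

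The 3 stathmin genes differed in where they were found. Stmn1, the stathmin that is also present in dividing and non-neuronal cells, had 552, 49.5, 1027 and 139.8 CPM, averaging 442 ± 447 CPM (SD, n = 4), and made up 87% of the summed CPM of the 10 genes in mouse 1. It was high in mice 1 and 3, as was the summed level of the oligodendrocyte markers given above. The part of oligodendrocyte RNA in the Stmn1 level was not tested. Stmn1 was 11.2-fold higher in mouse 1 than in mouse 2 (counting interval 10.8 to 11.5) and 7.35-fold higher in mouse 3 than in mouse 4 (7.22 to 7.49), again as a comparison of single libraries.

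Stmn2, a membrane-anchored stathmin of growing axons, had 0.241, 5.94, 115 and 28.4 CPM. Its level in mouse 1 rested on 26 counts, and in mouse 3 it was 477-fold that of mouse 1 (counting interval 325 to 731). Stmn3, another membrane-anchored member, had 1.45, 8.21, 103 and 82.7 CPM and differed between mice 3 and 4 by only 1.24-fold (1.21 to 1.28), against 4.04-fold for Stmn2 (3.87 to 4.22). Both had their 2 high values in mice 3 and 4, with no overlap between these and the values of mice 1 and 2, and both were higher in mouse 2 than in mouse 1, which is the reverse of Stmn1. Stmn1 lies on chromosome 4 (134468320 to 134473843, plus strand), Stmn2 on chromosome 3 (8509360 to 8561606, plus) and Stmn3 on chromosome 2 (181306459 to 181314500, minus). Of the distinct 50-base stretches of Stmn1 transcripts, 18.9% also occur in transcripts of other genes, mostly of Gm11223, so its value is less certain than that of Stmn3, which shared none.

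Tubb3, the beta-tubulin used as a marker of neurons, had 12, 0.15, 144 and 38.9 CPM, averaging 48.8 ± 65.6 CPM (SD, n = 4). Only 14 counts were recorded in mouse 2, against 1296 in mouse 1, so that Tubb3, like Stmn1, was higher in mouse 1 than in mouse 2 (80.1-fold, counting interval 47.6 to 147). Its locus is chromosome 8, 123411424 to 123422015, plus strand. None of its 50-base stretches occurred in transcripts of other genes, other tubulins included.

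The RNA-binding protein genes Elavl3 and Elavl4 did not run in parallel. Elavl4 had 10.3, 7.98, 58.5 and 45.9 CPM and was nearly level within each of the pairs of mice 1 and 2 (1.29-fold, counting interval 1.17 to 1.41) and mice 3 and 4 (1.27-fold, 1.22 to 1.33). Elavl3 had 8.02, 0.428, 38.9 and 4.49 CPM, and was 18.7-fold higher in mouse 1 than in mouse 2 (13.6 to 26.4) and 8.66-fold higher in mouse 3 than in mouse 4 (7.81 to 9.63). By distance of profiles Elavl3 was nearest to Stmn1 among the other 9 genes (1.02), and both were higher in mice 1 and 3 than in mice 2 and 4. Elavl3 lies on chromosome 9 (22015005 to 22052023, minus strand) and Elavl4 on chromosome 4 (110203722 to 110351909, minus strand). Elavl3 shares 256 exonic bases with Gm49318 on the same strand.

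Gap43 had 0.537, 2.11, 95.6 and 16.3 CPM, with 58, 197, 8249 and 1461 counts. Mouse 3 was 5.87-fold above mouse 4 (counting interval 5.56 to 6.21), and every library but that of mouse 3 was at or below 17.1 CPM at the upper end of its 95% Clopper-Pearson interval. Its profile was nearest to that of Stmn2 among the other 9 genes (distance 1.1). Its locus is chromosome 16, 42248442 to 42340651, minus strand.

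The genes varied widely between mice. Over the 32 values with 100 or more counts, the CPM of run 1 was 0.774 to 1.11 times that of run 2 of the same library, which is the technical error of sequencing alone. The SD of log2(CPM + 1) over the 4 mice was 0.78 for Sox4, 1.39 for Elavl4 and 1.96 to 2.96 for the other 8 genes. The median over the 10 genes was 2.11, beside 0.495 over all 9125 genes averaging 10 CPM or more, and each of the 10 lay above that value. Dcx and Sox11, averaging 5.89 and 5.8 CPM, are themselves outside that set of genes. In mice 3 and 4 alone the median SD was 1.17 over the 10 genes, beside 0.367 over 9235 genes averaging 10 CPM or more there, and 7 of the 10 lay above that value; Dcx (0.20), Stmn3 (0.22) and Elavl4 (0.24) did not. Of the 10 genes, 4, 2, 10 and 8 reached 10 CPM in mice 1, 2, 3 and 4, beside 46.8%, 45.7%, 49.5% and 47.6% of the 18522 genes tested.

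The 10 genes were tested for a level that differed from 10 CPM, a mark chosen because the design has no control group. edgeR's quasi-likelihood test with Benjamini-Hochberg adjustment over 18522 genes called 4 of the 10 above 10 CPM, beside 36.7% of all genes tested, and none below. The called genes were Stmn1 (log2 level relative to 10 CPM 5.47, SE 0.27, adjusted p = 5.16e-06), Sox4 (2.01, SE 0.25, adjusted p = 0.000613), Elavl4 (1.62, SE 0.43, adjusted p = 0.0248) and Stmn3 (2.29, SE 0.62, adjusted p = 0.0274). Each SE was worked back from the F statistic of this test, so it restates the p-value and is no separate measure of error. A share of 4 in 10 is near that of all genes and is no result about the group as such. The median log2 level was 1.76 over the 10 genes and -0.07 over all genes tested.

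The other 6 genes did not pass. Tubb3 had the same log2 level as Stmn3 with a larger SE (2.29, SE 0.77, edgeR adjusted p = 0.0623). Stmn2 stood at 1.90 (SE 0.80, adjusted p = 0.121), Gap43 at 1.52 (SE 0.84, adjusted p = 0.215) and Elavl3 at 0.37 (SE 0.83, adjusted p = 0.714). Dcx and Sox11 were at -0.76 (SE 1.82) and -0.79 (SE 1.73), with edgeR adjusted p of 0.731 and 0.711. limma-voom called 2 of the 10 above 10 CPM, Stmn1 and Sox4, beside 35.9% of all genes. DESeq2 called 5, the 4 genes of edgeR and Tubb3 (adjusted p = 0.0291), beside 38.6% of all genes.

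The calls of Stmn3 and Elavl4 depended on single libraries. Without mouse 3 the edgeR adjusted p was 0.228 for Stmn3 and 0.21 for Elavl4, and without mouse 4 it was 0.164 and 0.147, while Stmn1 and Sox4 were called whichever single mouse was left out. With mice 1 and 2 left out, a setting picked once their low transgene counts were known, edgeR called 7 of the 10, beside 37.0% of all genes, adding Tubb3 (log2 3.26), Stmn2 (2.90) and Gap43 (2.55). This setting keeps the 2 libraries in which these 3 genes were high, so their calls follow from the choice. The level of Sox4 was then lower, at a log2 of 1.35. Stmn1, Stmn3 and Elavl4 were at 5.93, 3.28 and 2.44 in this setting, and Elavl3, which was not called, at 1.18. Stmn3 and Elavl4 also had their high values in the 2 libraries kept. The count also moved with the mark, as it did for all genes: 7 of the 10 were called above 5 CPM, beside 45.3% of all genes, and 2 above 20 CPM, beside 25.5%.

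Summed over the 10 genes, the level was 635, 136, 1630.5 and 404 CPM, averaging 701 ± 652 CPM (SD, n = 4). The mean was 392 CPM without mouse 3, and 1017 CPM in mice 3 and 4 alone. Leaving Stmn1 out of the sum gave 82.7, 87.0, 603 and 264 CPM, so mice 1 and 2 then had similar sums, both below those of mice 3 and 4. The 10 pan-neuronal markers, none of them among the 10 genes, summed to 118, 100.4, 824 and 378 CPM. The most abundant of these, Snap25, a protein of synaptic vesicle release, stood at 19.9, 54.7, 385 and 167 CPM, and Uchl1, a ubiquitin hydrolase of neurons, at 78.6, 4.01, 272 and 66.7 CPM. Uchl1 was, like Tubb3 and Elavl3, higher in mouse 1 than in mouse 2, and Snap25, like Stmn2 and Stmn3, lower. The list was not uniform: the neurofilament genes Nefl (0.00926, 14.5, 1.73 and 3.53 CPM), Nefm (3.51, 14.8, 1.19 and 22.1 CPM) and Nefh (5.77, 3.59, 2.87 and 1.55 CPM) were not highest in mouse 3.

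**Figure D2:**
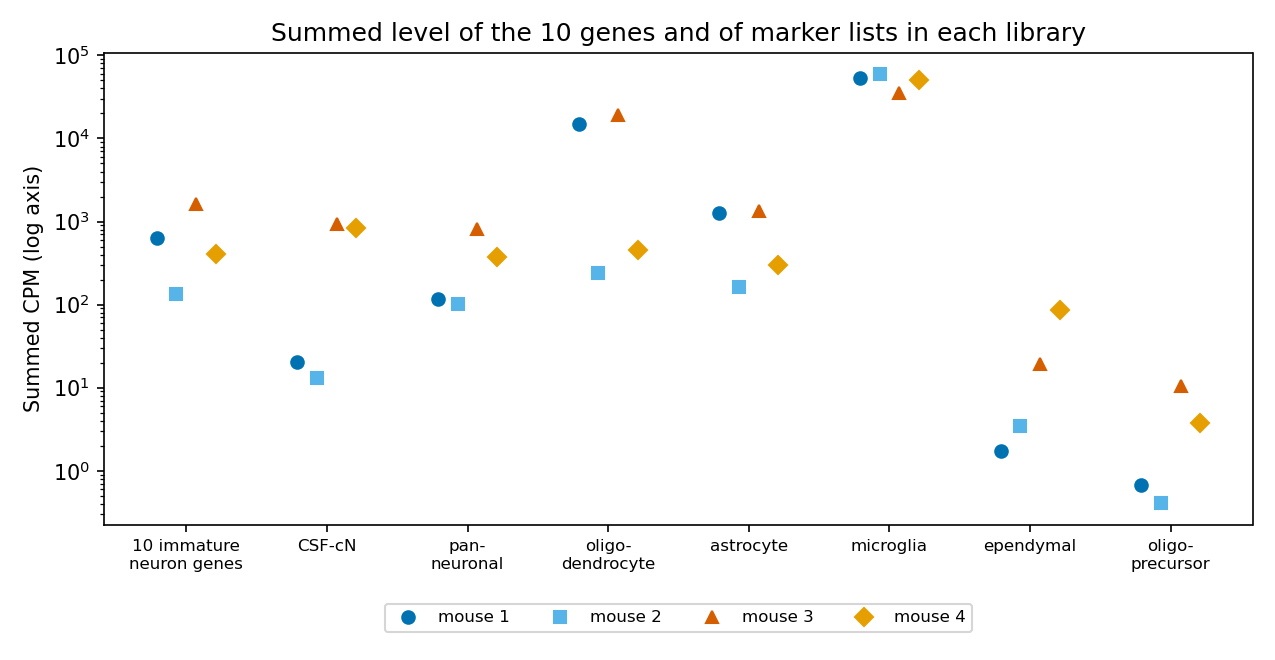
Summed level of the 10 genes and of 7 lists of cell type markers in each of the 4 libraries, in CPM on a log axis; each point is 1 mouse. The CSF-cN sum was 12.9 to 20.3 CPM in mice 1 and 2 and 846 to 941 CPM in mice 3 and 4, while the sum of the 10 genes was lowest in mouse 2 (136 CPM) and highest in mouse 3 (1630.5 CPM).

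Markers of other cells in which some of the 10 genes are known to occur were looked at beside them. Of 6 markers of oligodendrocyte precursors, 3, 5, 3 and 3 were at 0, the defining gene Pdgfra had no count in any library, and the list summed to 0.667, 0.407, 10.5 and 3.8 CPM. Of 6 markers of newly formed oligodendrocytes, Bmp4, Gpr17 and Neu4 had no count in any library, while Enpp6, a choline phosphodiesterase, stood at 276, 0.128, 345 and 0.123 CPM. Bcas1 had 21.8, 3.4, 28.3 and 13.9 CPM and Tcf7l2, a Wnt pathway factor, 14.2, 18.6, 5.12 and 20.6 CPM, so Tcf7l2 was higher where Enpp6 was near 0. Of 8 genes of the cell cycle, in which Stmn1 also acts, 5, 2, 2 and 5 were at 0, and the proliferation marker Mki67 had counts in mouse 2 alone (0.428 CPM). Pcna, the sliding clamp of DNA replication, was level at 66.8, 66.4, 72.2 and 66.0 CPM. Others of the list were not: Mcm2 had 7.38, 32.4, 5.59 and 7.72 CPM. Cdk1 was highest in mouse 4 (8.69 CPM), Top2a in mouse 3 (5.15 CPM) and Ccna2 in mouse 1 (2.57 CPM). Astrocyte markers summed to 1253, 161, 1349 and 299 CPM, with Aldoc, a glycolytic enzyme, at 835, 11.6, 846 and 118 CPM and S100b at 298, 4.2, 439.9 and 10.5 CPM, and 3, 3, 0 and 4 of the 10 at 0. These 2 genes made up most of the sums of mice 1 and 3, and others of the list differed: the glutamate transporter gene Slc1a3 had 115, 122, 52.1 and 155 CPM, Gfap was highest in mouse 2 (23.4 CPM), and Gja1 and Aqp4 in mouse 4 (10.8 and 5.45 CPM). Ependymal markers summed to 1.72, 3.41, 19.3 and 87 CPM, with Fam183b and Rsph1 highest by mean and 8, 2, 2 and 0 of the 10 at 0. The part of these cells in the levels of the 10 genes was not tested.

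Pairs of genes were compared inside each mouse by the log2 ratio of CPM per kilobase of exon, with 0.1 added to each. Most were relatives within a family, but Gap43 with Marcks and Dcx with Tubb3 were not. Signs were flipped over the 4 mice in an exact permutation test, two-sided, whose smallest p is 2 of 16 sign patterns, so no pair could pass 0.05. It is called the smallest p here, and adjusted p-values are Benjamini-Hochberg over the 10 pairs. Stmn2 was below Stmn1 in 4 of 4 mice (mean log2 ratio -5.99 ± 3.34, SD, n = 4; the smallest exact permutation p, adjusted 0.179), by -10.97 in mouse 1 and by -3.81 to -4.70 in the others. Stmn2 was also below Stmn3 in 4 of 4 mice, with ratios of -3.27, -2.66, -2.14 and -3.82 and the smallest spread of the 10 pairs (-2.97 ± 0.73, the smallest exact permutation p, adjusted 0.179). Stmn3 over Stmn1 was -7.70, -1.82, -2.56 and 0.00 (-3.02 ± 3.30, exact permutation p = 0.25, adjusted 0.278), so both had the same level per kilobase in mouse 4. In mice 3 and 4 alone the mean ratio was -4.26 for Stmn2 over Stmn1, -2.98 for Stmn2 over Stmn3 and -1.28 for Stmn3 over Stmn1, which was -1.46 without mouse 1. Without scaling by length Stmn2 over Stmn3 was -1.01 (exact permutation p = 0.25), and Stmn2 was then above Stmn3 in mouse 3 (115 against 103 CPM).

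Elavl4 exceeded Elavl3 in 4 of 4 mice, by 0.67, 3.29, 0.93 and 3.52 (mean log2 ratio 2.10 ± 1.51, SD, n = 4; the smallest exact permutation p, adjusted 0.179). Elavl1, the relative that most cell types express, was steady at 10.8, 12.1, 10.1 and 9.15 CPM per kb. Elavl3 was below it in 4 of 4 mice (-3.44 ± 2.22, the smallest exact permutation p, adjusted 0.179). Elavl4 reached the level of Elavl1 in mice 3 and 4, with log2 ratios of 0.11 and -0.10, and was below it in mice 1 and 2, at -2.44 and -2.94 (mean -1.34 ± 1.57, SD, n = 4; exact permutation p = 0.375, adjusted 0.375). In mice 3 and 4 alone the mean ratio was 2.22 for Elavl4 over Elavl3, -2.22 for Elavl3 over Elavl1 and 0.00 for Elavl4 over Elavl1, which was -0.81 without mouse 2.

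Sox11 was below Sox4 in 4 of 4 mice, with log2 ratios of -6.71, -7.03, -0.79 and -3.05 (mean -4.39 ± 3.00, SD, n = 4; the smallest exact permutation p, adjusted 0.179). With 1 and 0 counts of Sox11 in mice 1 and 2, the sign there was fixed and the size was set by the 0.1 added: the mean was -2.52 with 1 added, -6.06 with 0.01 added and -1.92 in mice 3 and 4 alone. Tubb3 was compared with Tubb5, a beta-tubulin of many cell types, and per kilobase exceeded it in mouse 3 alone (-2.07, -7.29, 0.38 and -0.63). The mean was -2.40 (exact permutation p = 0.25, adjusted 0.278), or -0.77 without mouse 2 and -0.13 in mice 3 and 4 alone. Without scaling by length it was -3.34, and Tubb3 was below Tubb5 in mouse 3 as well (144 against 197 CPM). Gap43 was below Marcks, another membrane substrate of protein kinase C, in 4 of 4 mice, by -9.04, -7.67, -1.33 and -4.41, with a mean of -5.61, or -2.87 in mice 3 and 4 alone (the smallest exact permutation p, adjusted 0.179). Marcks itself is also a gene of microglia and other cells and stood at 965, 1224, 640 and 929 CPM. Dcx was below Tubb3 in 4 of 4 mice (-4.37 ± 2.46, the smallest exact permutation p, adjusted 0.179), but Dcx had no count in mice 1 and 2, which fixes the sign there; the mean was -5.29 in mice 3 and 4 alone.

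**Figure D3:**
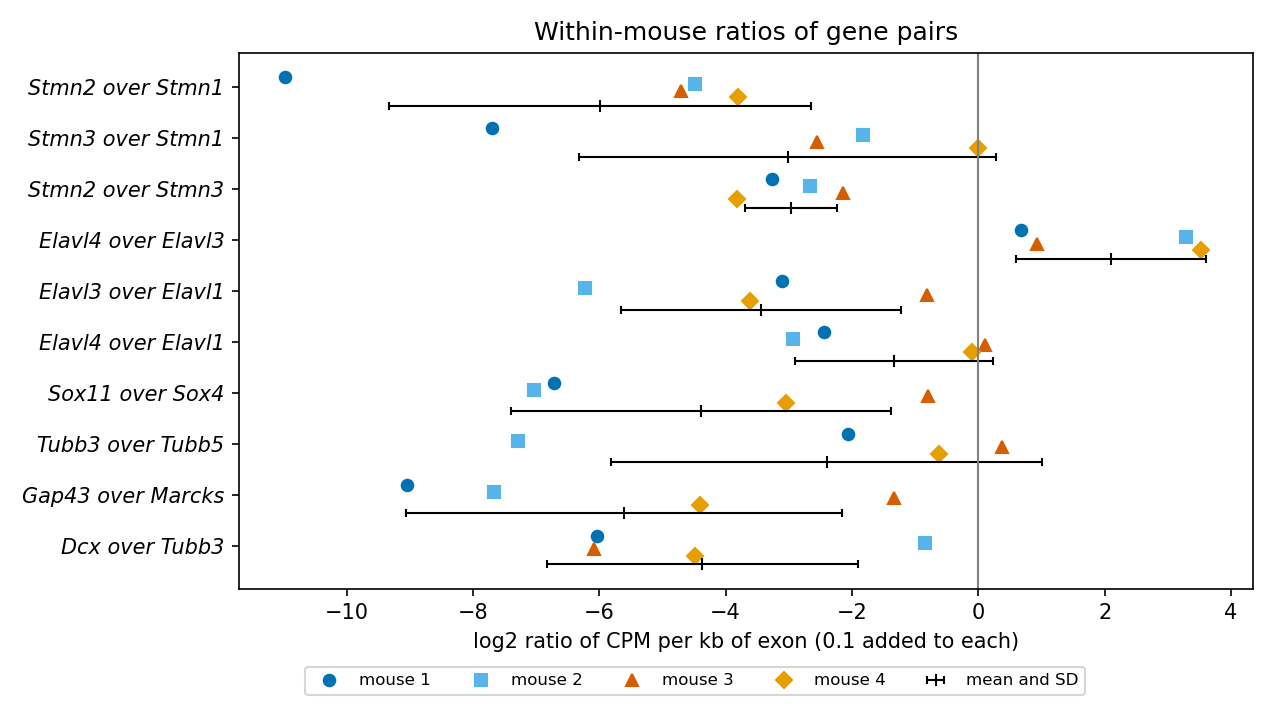
Log2 ratio of CPM per kilobase of exon, with 0.1 added to each level, for 10 gene pairs; points are the 4 mice and the bar below them is the mean with the SD. Elavl4 over Elavl3 lay above 0 in all 4 mice, Stmn2 over Stmn3 ranged only from -3.82 to -2.14, and Stmn2 over Stmn1 reached -10.97 in mouse 1.

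By mean level per kilobase of exon the order was Stmn1 (230 CPM per kb), Stmn3 (43.0), Tubb3 (26.1), Gap43 (18.8), Sox4 (8.4), Stmn2 (6.67), Elavl4 (5.69), Elavl3 (1.88), Sox11 (0.698) and Dcx (0.465). The ranges over the 4 mice overlapped for all 9 neighbours in this order, so none of them was separated beyond its spread. Between Elavl4 and Elavl3 the upper gene was the higher in every mouse, and between Stmn2 and Elavl4 it was the higher in 1 mouse alone. In mice 3 and 4 alone the order was the same except for Sox4 (5.09 CPM per kb), which stood below Stmn2 (12.8) and Elavl4 (9.68).

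Genes of the same processes were read from lists that hold none of the 10. Of 20 microtubule genes, 13 were called above 10 CPM by edgeR and none below, beside 36.7% of all genes tested. The list had a median of mean levels of 59.2 CPM, against 9.52 CPM over all genes tested. The alpha-tubulin gene Tuba1a stood at 3315, 231, 4480.1 and 624 CPM and the beta-tubulin gene Tubb4a, known from myelinating oligodendrocytes, at 1302, 8.17, 2186 and 112 CPM. Both were high in mice 1 and 3, as was Stmn1, while Tuba1b was found at like levels in all 4 libraries (581, 586, 859.9 and 698 CPM). Map1b, a microtubule-associated protein of growing axons, had 152, 10.1, 819 and 301 CPM, the same order of mice as Tubb3. The microtubule-binding relatives of Dcx, Dclk1 and Dclk2, had 0, 0, 7.5 and 0.201 CPM and 0, 0.0428, 3.32 and 12.9 CPM, and were not called.

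Of 18 growth cone genes, 7 were called above 10 CPM and none below, with a median of 13.3 CPM. This is near the share of all genes tested (36.7%) and is no result about the list. The 4 most abundant followed different patterns. Marcks, given above, was highest in mouse 2. Fez1, a kinesin adaptor of axon outgrowth, had 573, 4.34, 1075 and 41.1 CPM, and Rtn1, a reticulon of neurons, had 29.8, 75.1, 586 and 413 CPM. Basp1, a relative of Gap43 in function, was the steadiest of these, at 167, 195, 157 and 175 CPM, while Gap43 ranged over 0.537 to 95.6 CPM.

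Of 20 neurogenic genes, 12 were tested and 2 were called above 10 CPM, St18 and St8sia4, beside 36.7% of all genes tested. No count was found in any library for Neurod1, Neurod4, Neurog2, Igfbpl1, Nhlh1, Nhlh2, Draxin and Eomes, most of which act in neuronal precursors. St8sia4, which adds polysialic acid to Ncam1, had 63.3, 23.8, 20.1 and 78.8 CPM, and the zinc finger factor St18 had 15.4, 3.11, 100.2 and 38 CPM. Myt1l, a related factor of neurons, had 0, 0.0107, 23.0 and 26.3 CPM and Nnat, a small membrane protein of young neurons, 0.00926, 0.193, 10.7 and 52.0 CPM, so both were found, as Dcx was, mainly in mice 3 and 4, with 1 and 18 counts of Nnat and 0 and 1 of Myt1l in mice 1 and 2. Sox12, the third SoxC factor, reached no more than 2.06 CPM (0.482, 0, 0.359 and 2.06 CPM).

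Of 15 genes of RNA-binding proteins and of the factor Rest, 6 were called above 10 CPM and none below, with a median of 14.2 CPM. This is near the share of all genes tested (36.7%) and is no result about the list. Qk, a splicing factor of glia, had 939.7, 772, 744 and 551 CPM, and Elavl1 had 112, 125, 104 and 94.8 CPM. Celf4, a neuronal member of its family, had 0.167, 0.567, 171 and 100 CPM, and Ptbp2, the neuronal polypyrimidine tract protein, 49.7, 30.2, 87.4 and 79.9 CPM. Elavl2, the neuronal relative of Elavl3 and Elavl4, had 0, 0.0107, 16.3 and 13.9 CPM and was not called (edgeR adjusted p = 0.842). Rest, which represses neuronal genes outside neurons, had 40.7, 23.9, 41.2 and 25.9 CPM and was called.

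**Figure D4:**
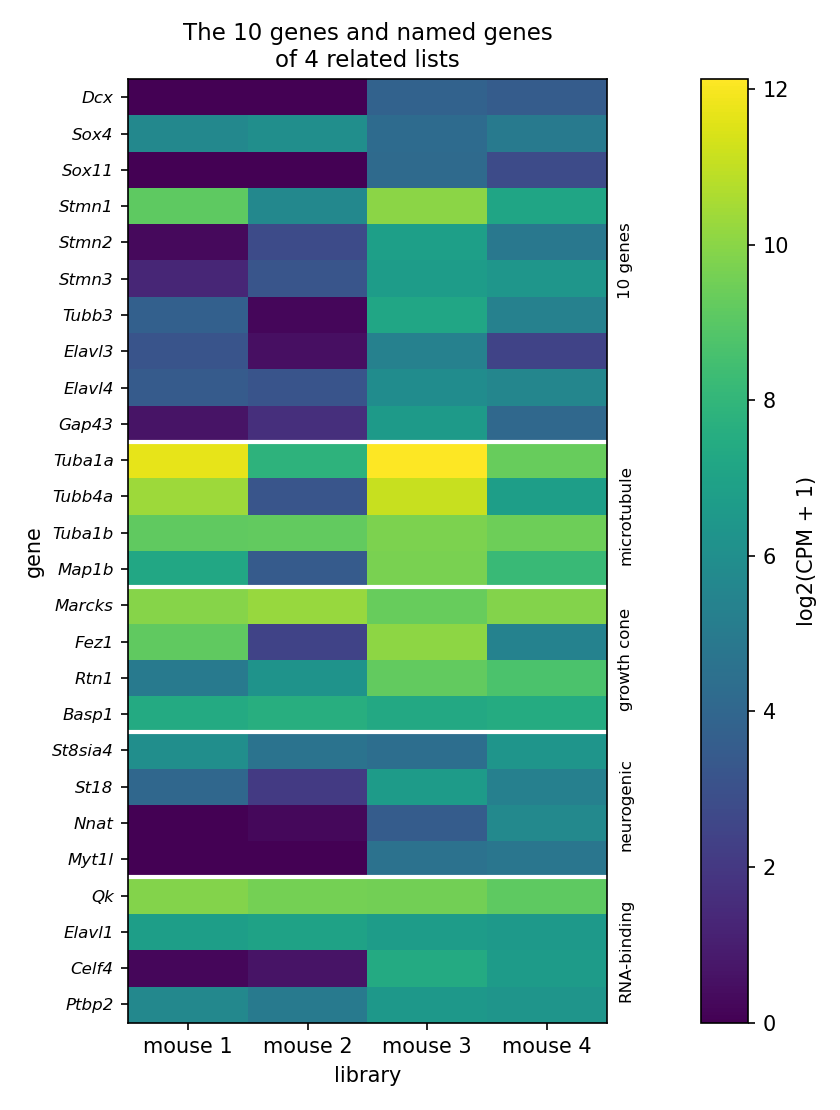
Log2(CPM + 1) of the 10 genes and of the 4 genes with the highest mean level of each of 4 related lists, in the 4 libraries. Tuba1a and Tubb4a were brightest in mice 1 and 3 as Stmn1 was, Celf4 and Myt1l were near 0 in mice 1 and 2 as Dcx and Sox11 were, and Basp1, Elavl1 and Tuba1b were similar in all 4.

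For each of the 10 genes, the genes with the most similar profile were sought among the 9125 with a mean of at least 10 CPM, by the distance used above over 4 mice. With 4 points, such likeness describes these libraries only. The nearest to Stmn1 were Idi1 (distance 0.25), an enzyme of cholesterol synthesis with 153, 15.1, 256 and 37.5 CPM, then Tuba1a (0.37) and Hoxd8 (0.46). The nearest to Tubb3 were Mapt (0.63), which codes for the microtubule protein tau and had 9.85, 0, 73.6 and 33.0 CPM, Dync1i1 (0.77), a dynein chain, and Map1b (0.79). Stmn2 was nearest to the homeobox gene Meis2 (0.62; 0.0278, 2.74, 61.2 and 23.2 CPM), Chn1 (1.04) and the granin Scg3 (1.1).

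Stmn3 was nearest to Chchd10 (0.41), Tmod2 (0.54) and Pcdh7 (0.56), and Elavl4 to Maged1 (0.34), Ncdn (0.35) and Cpne1 (0.37). Elavl3 was nearest to the phosphate transporter gene Slc20a2 (0.56), Tmem254c (0.63) and Armcx1 (0.7), and Gap43 to Dcun1d4 (0.59), Susd4 (0.76) and AW551984 (0.76). Sox11 was nearest to Atp1b1 (0.44; 7.7, 4.58, 129 and 47.0 CPM), a sodium pump subunit, then to the calcium channel subunit gene Cacna2d3 (0.76) and to Susd4 (0.82). Dcx was nearest to Zfp456 (0.5), Nsg1 (0.61) and Ahi1 (0.62), and Nsg1, a protein of neuronal endosomes, had 3.29, 3.04, 74.4 and 78.7 CPM. The nearest to Sox4 were Kansl3 (0.12; 23.9, 29.5, 7.55 and 13 CPM), Gm2237 (0.13) and Asap3 (0.14), all with their higher values in mice 1 and 2.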

How the data were processed

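Whole-number counts per gene for 42458 rows were deposited by the authors, with 2 columns per mouse, whose processing, per the submitters' processing notes, involved RSEM, STAR, DESeq2, Trim Galore and FastQC and the mm10 build. Roles, versions and annotation: not given in the sources used here. Per the labels, cDNA was made with SMART-Seq v4 (11 PCR cycles) and libraries with Nextera XT, which keep no strand and carry no molecular identifiers, so intervals and floors cover counting error only. The columns' sample numbers were taken as mouse numbers. The 2 columns of a mouse (Spearman 0.9934 to 0.9972 over tested genes) were treated as runs and summed, so each mouse is 1 replicate. The authors also deposited log2 values, which equal log2 of these sums divided by a size factor (1.18, 1.05, 0.936 and 0.983), plus 1. They were not analysed further.

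CPM used TMM factors of 0.935, 0.982, 1.04 and 1.05. Genes with at least 10 counts were tested in an intercept-only quasi-likelihood model (edgeR 4.0.16, R 4.3.3) whose offset makes 0 mean 10 CPM, with the F test taken from the deviances, its Poisson bound included, and a threshold of 0.05. On simulated data the test called 47 of 50 genes set 4-fold above 10 CPM and 0 of 50 set at it. It called 0 of 50 set 16-fold below 10 CPM, so the absence of a call below that level carries little weight. The simulated spread followed the trend over all genes at each level. The 10 genes varied more between mice than most genes averaging 10 CPM or more, so the 47 of 50 need not hold for them. Alternatives used limma 3.58.1 and DESeq2 1.42.0. Floors are 3 counts, and fold intervals between libraries are exact conditional binomial 95% intervals. GENCODE M21 (GRCm38, mm10) gave loci and exon lengths. Python 3.11.15 with scipy 1.17.1, matplotlib 3.10.9, pandas 2.3.3 and numpy 2.4.6 served the other steps. The members, lists, pairs and tests were chosen with earlier results of these data known. Named genes are the 10 members, the 4 genes with the highest mean of each of 4 pathway lists, the 2 highest of each marker list (not all are reported here), the genes of the pairs and the 3 nearest profiles per member. Dclk1, Dclk2, Sox12, Elavl2, Rest, Enpp6, Pcna, Mki67, Mcm2, Cdk1, Top2a, Ccna2, Nefl, Nefm, Nefh, Slc1a3, Gfap, Gja1, Aqp4, Tcf7l2, Tal1, Pdgfra, Bmp4, Gpr17, Neu4 and the genes without counts were added after their values were seen.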

Additional observations from a re-analysis of the deposited data

Results flagged for a closer look

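In all, 2 of 21 sets of 4 values had a single library far from the others by Dixon's test at the 95% level. Chance gives this in about 1 in 20 sets of normally distributed values, a rate that need not hold for levels in CPM. Gap43 in mouse 3, at 95.6 CPM, stood apart from 0.537, 2.11 and 16.3 CPM in mice 1, 2 and 4, with a gap of 0.834 of the range. These values were taken in CPM and not on a log scale, and they are skewed, so no conclusion is drawn from this flag. The log2 ratio of Stmn2 over Stmn1 in mouse 1, at -10.97, stood apart from -4.48, -4.70 and -3.81 in mice 2, 3 and 4, with a gap of 0.876 of the range; it rests on 26 counts of Stmn2.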

How the results depend on the processing

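The number of the 10 genes called above 10 CPM was 4. It was 2 with limma-voom and 2 against a level of 20 CPM, 7 against 5 CPM and 7 without mice 1 and 2, which was chosen after the data were seen; without each single mouse it ranged from 2 to 5 (2 without mouse 3 or mouse 4). The cause was not tested. Of all genes tested, 45.3% were called against 5 CPM, 25.5% against 20 CPM, 37.0% without mice 1 and 2 and 35.9% to 36.7% without each single mouse. Log2 levels turned sign only for genes that were not called: against 5 CPM Dcx was at 0.24 and Sox11 at 0.21, without mice 1 and 2 they were at 0.30 and 0.28, limma-voom gave -0.58 for Stmn2, -0.07 for Tubb3, -1.04 for Elavl3 and -0.88 for Gap43, and Elavl3 was at -0.63 against 20 CPM. Without each single mouse, Elavl3 ranged from -1.23 to 0.79 and Gap43 from -0.68 to 1.96. Dcx and Sox11 kept their sign with limma-voom but moved far, from -0.76 to -5.41 and from -0.79 to -5.18. Neither was called (limma-voom adjusted p = 0.0784 and 0.075). Other edgeR calls were those of Stmn2 when mouse 1 was left out (adjusted p = 0.0242) and of Tubb3 when genes with 1 count or more were tested (0.0392) or mouse 2 was left out (0.00483). With DESeq2 size factors, library totals or either run alone, all 10 genes kept their direction and call. The mean summed level ranged from 392 to 889.6 CPM without each single mouse. Without mice 1 and 2 the mean ratio of Elavl4 over Elavl1 was 0.00, marginally above 0; the other pair means kept their sign, but for pairs with 1 sign in all 4 mice leaving mice out could not turn it. Sizes moved: with 1 and 0.01 added, Sox11 over Sox4 was -2.52 and -6.06, Dcx over Tubb3 -2.96 and -5.84 and Elavl4 over Elavl3 1.25 and 2.43. Without each single mouse, Stmn3 over Stmn1 ranged from -4.03 to -1.46, Tubb3 over Tubb5 from -3.33 to -0.77 and Elavl4 over Elavl1 from -1.83 to -0.81; without length scaling Elavl4 over Elavl1 was -2.32. No copy rows of the 10 genes were found, so adding copies was not run. No paired analysis was possible because there is a single group, with no second group whose samples could share a number; the ratios within a mouse pair genes, not samples. Depth limited only values of 3 counts or fewer, namely Dcx and Sox11 in mice 1 and 2.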
